A study of Homo sapiens with 6 samples.

Results

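Iron-sulfur clusters are built in mitochondria by a dedicated set of nuclear-encoded proteins. The genes described here are *NFS1*, *LYRM4*, *ISCU*, *HSCB*, *GLRX5*, *ISCA1*, *ISCA2* and *NFU1*, 8 of the 19330 genes in the deposited count table, taken by name. They were followed by RNA-Seq in the human K562 line, derived from a chronic myelogenous leukemia and erythroid in character, with or without depletion of *N6AMT1*, which encodes a methyltransferase that modifies the translation termination factor eRF1. All cells were transduced with the pLentiCRISPRv2 lentivirus, which carries Cas9, and selected with puromycin for 48 h, and they were analyzed 10 d after infection. The control cells (sgCtrl) received sgRNAs against olfactory receptor genes that the labels give as OR11A1 and OR2M49, and the depleted cells (sgN6AMT1) received sgRNAs against *N6AMT1*. Each condition comprised 3 independent lentiviral transductions. Puromycin selection is described and growth from single clones is not, so the cells are taken here as pools, and the labels do not say which of the sgRNAs went into which library. In a pool, fewer cells with a given transcript and less of it per cell cannot be told apart.

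In this pathway, the cysteine desulfurase NFS1 takes sulfur from cysteine and passes it to the scaffold ISCU, on which sulfur and iron are joined into a cluster. NFS1 is held stable by its small partner LYRM4 (ISD11). The finished cluster is handed over by the co-chaperone HSCB and its chaperone HSPA9 to the glutaredoxin GLRX5, and ISCA1, ISCA2 and NFU1 then make and deliver the larger clusters needed by respiratory complexes and lipoic acid synthesis. In erythroid cells the pathway is known for its link to heme, since iron-sulfur proteins act in heme synthesis and in the sensing of iron.

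The sgCtrl libraries held 742470 to 866894 counts and the sgN6AMT1 libraries 959319, 5526904 and 4062363 counts in replicates 1 to 3, replicates 2 and 3 of sgN6AMT1 being several times deeper than the rest. *N6AMT1* itself was counted 6, 5 and 9 times in sgCtrl and 0, 18 and 16 times in sgN6AMT1. In counts scaled to a common library total (cpm), this was 8.08, 5.77 and 10.4 cpm against 0, 3.26 and 3.94 cpm, every sgN6AMT1 library being below every sgCtrl library, and the count of 0 allows up to 3.13 cpm. *N6AMT1* did not pass the filter on low counts and was not tested. All 10 markers of K562 cells that were looked up were detected. Their summed level, in cpm scaled between libraries by TMM, was 11632 to 18907 in sgCtrl and 19037 to 35635 in sgN6AMT1. Most of it came from the globin transcripts *HBG1* and *HBG2*, near-identical copies. The rise of the sum came from *HBG1*, *HBG2* and *HBE1*, which were called higher, while the 10 markers were split into 5 higher and 5 lower with a median log2 fold change of 0.005, *LMO2* being called lower (−1.01, adjusted p = 0.0239). Of 10 markers of other cell types, *MS4A1* and *PDGFRB* were at 0 in every library. The list summed to 181 to 204 cpm in sgCtrl and 147 to 197 cpm in sgN6AMT1, most of it *EPCAM*. The hepatocyte marker *ALB* moved against this sum, its mean being 0.385 cpm in the controls and 5.42 cpm after depletion. For *ALB* each sgN6AMT1 library exceeded each sgCtrl library, on at most 32 counts. *COL1A1* was lower without overlap (mean 4.12 against 2.57 cpm). Both genes had too few counts to be tested. The part of these differences in the results below was not tested.

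None of the 8 genes differed between sgN6AMT1 and sgCtrl after correction over all genes tested. Levels are given as cpm scaled between libraries by TMM (normalized cpm), and a gene was called when its adjusted p was under 0.05 in edgeR's quasi-likelihood test. Each of the 8 genes had enough counts to be tested, 0 of 8 were called higher or lower, and 9.85% of the 8324 genes tested were called, 5.09% higher and 4.76% lower. At an unadjusted p under 0.05 stood 2 of the 8 genes, *LYRM4* on the low side and *HSCB* on the high side, beside 26.2% of all genes tested. The conditions did not overlap for 3 of the 8 genes, *LYRM4* lower and *HSCB* and *NFS1* higher in sgN6AMT1. The same held for 29.2% of all genes tested, 15.1% higher and 14.1% lower, so that the shares among the 8 genes were close to those of all genes. DESeq2, run as an alternative, called 0 of the 8, beside 630 of the 13874 genes it tested.

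**Figure D1:**
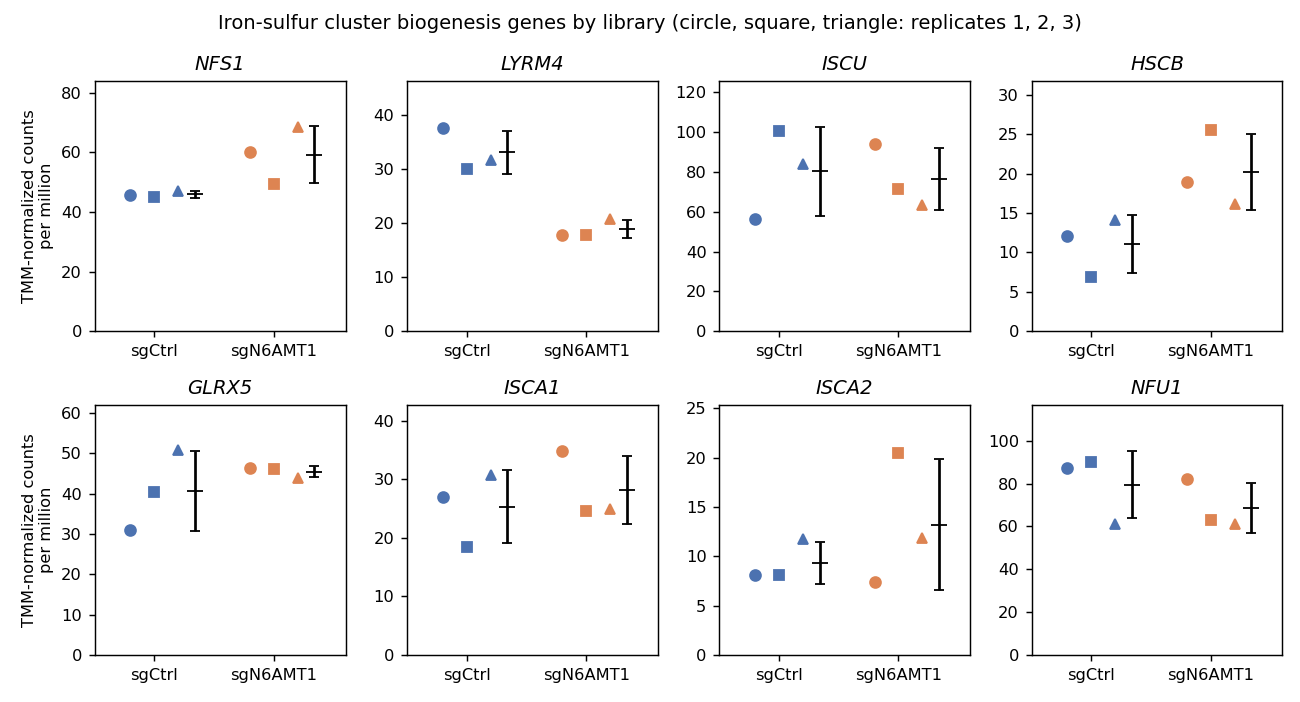
Levels of the 8 iron-sulfur cluster biogenesis genes in each library, in TMM-normalized cpm on axes that start at 0, with sgCtrl in blue and sgN6AMT1 in orange; the bars give the mean ± SD of 3 libraries. *LYRM4* lies at 30.0 to 37.6 normalized cpm in sgCtrl and at 17.9 to 20.8 in sgN6AMT1, *NFS1* and *HSCB* are higher in every sgN6AMT1 library than in any sgCtrl library, and the conditions overlap for the other 5 genes.

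*LYRM4*, the stabilizing partner of the desulfurase, showed the smallest p of the 8 genes. The gene lies at chr6:5103629-5260950 on the minus strand (GRCh38, GENCODE v44). It had 28, 26 and 27 counts in sgCtrl replicates 1 to 3 and 17, 98 and 81 counts in sgN6AMT1 replicates 1 to 3. The normalized levels were 37.6, 30.0 and 31.8 cpm in sgCtrl and 17.9, 17.9 and 20.8 cpm in sgN6AMT1. The highest sgN6AMT1 library thus lay below the lowest sgCtrl library, and the shallow sgN6AMT1 replicate 1 gave the same level as the deep replicate 2. The means were 33.2 ± 3.98 and 18.9 ± 1.69 cpm (SD, n = 3 each), and the log2 fold change was −0.80 (SE 0.27, 95% confidence interval −1.36 to −0.24), or 0.576 times the control level. The p was 0.00783 and the adjusted p 0.0655, so that *LYRM4* was not called. The low counts leave a wide counting interval in single libraries, for example 11.1 to 28.4 cpm (95% Wilson interval) for the 17 counts of sgN6AMT1 replicate 1. Such intervals and the limits for a count of 0 cover counting error only.

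Whether *LYRM4* passed the threshold depended on the processing, while its direction did not. Over 17 alternative fits the log2 fold change ran from −1.05 to −0.70. The adjusted p was 0.0477 when the 2 deep sgN6AMT1 libraries were thinned to 866524 counts each. It was 0.0202 when the dependence of each library on GC content and transcript length was removed, with a log2 fold change of −0.97. In the other 15 fits it was above 0.05, among them 0.115 with DESeq2 and 0.0884 to 0.195 with each library left out. One of these 15 fits used the shallow libraries alone and gave a log2 fold change of −0.87. In that fit sgN6AMT1 was a single library assumed to vary like the sgCtrl libraries.

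*NFS1*, the desulfurase that binds LYRM4, lay on the other side of 0. The gene is at chr20:35668052-35699355 on the minus strand. Its normalized levels were 45.7, 45.0 and 47.2 cpm in sgCtrl and 60.1, 49.5 and 68.4 cpm in sgN6AMT1. The sgCtrl libraries were close together, and each sgN6AMT1 library exceeded all of them, replicate 2 by the least. The means were 45.9 ± 1.10 and 59.3 ± 9.48 cpm, with a log2 fold change of 0.36 (SE 0.22, 95% confidence interval −0.09 to 0.81, adjusted p = 0.299). *NFS1* shares exon sequence with another protein-coding gene model on the same strand, so reads of the latter could have been counted with it.

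Since NFS1 and LYRM4 form one complex, the counts of their transcripts were also set against each other within each library, which needs no scaling between libraries. There were 1.21, 1.50 and 1.48 counts of *NFS1* per count of *LYRM4* in sgCtrl and 3.35, 2.77 and 3.28 in sgN6AMT1. The means of this ratio were 1.40 ± 0.160 and 3.13 ± 0.321 (SD, n = 3 each), and the conditions did not overlap. Because *NFS1* was higher and *LYRM4* lower without overlap, their ratio had to separate the conditions, and it is no separate result. Counts of *ISCU* per count of *LYRM4* were 1.5, 3.346 and 2.63 in sgCtrl and 5.235, 4.0 and 3.049 in sgN6AMT1. The *ISCU* ratio overlapped between the conditions. The pair of *NFS1* and *LYRM4* was chosen after its values were seen, and neither ratio was tested.

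*ISCU*, the scaffold, is located at chr12:108562582-108569368 on the plus strand. Its normalized levels were 56.4, 100.4 and 83.7 cpm in sgCtrl and 93.8, 71.5 and 63.5 cpm in sgN6AMT1. The sgCtrl libraries alone spanned the whole range of the sgN6AMT1 libraries. The means were 80.2 ± 22.2 and 76.3 ± 15.7 cpm, with a log2 fold change of −0.12 (SE 0.22, 95% confidence interval −0.57 to 0.34, adjusted p = 0.785). The sign turned to 0.07 without sgCtrl replicate 2 and to 0.23 with the shallow libraries alone.

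*HSCB*, the co-chaperone that brings the cluster-loaded scaffold to HSPA9, had the largest positive log2 fold change of the 8 genes. The gene is at chr22:28742039-28757515 on the plus strand. It had 9, 6 and 12 counts in sgCtrl and 18, 140 and 63 counts in sgN6AMT1. Normalized levels were 12.1, 6.92 and 14.1 cpm in sgCtrl and 19.0, 25.6 and 16.2 cpm in sgN6AMT1. The conditions did not overlap, but the highest sgCtrl and the lowest sgN6AMT1 library were close. The means were 11.1 ± 3.72 and 20.2 ± 4.81 cpm, with a log2 fold change of 0.90 (SE 0.37, 95% confidence interval 0.13 to 1.67, adjusted p = 0.123). The control level rests on few counts, since the 6 counts of sgCtrl replicate 2 have a Wilson interval of 3.17 to 15.1 cpm, and the log2 fold change was 0.64 without that library. It was 0.65 without the deep sgN6AMT1 replicate 2.

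*GLRX5*, the glutaredoxin that takes over the cluster and whose loss is known from inherited sideroblastic anemia, is at chr14:95533503-95544724 on the plus strand. Its normalized levels were 30.9, 40.4 and 50.7 cpm in sgCtrl and 46.4, 46.0 and 44.0 cpm in sgN6AMT1. The sgN6AMT1 libraries were nearly equal and lay within the range of the sgCtrl libraries. The means were 40.7 ± 9.90 and 45.4 ± 1.29 cpm, with a log2 fold change of 0.15 (SE 0.23, 95% confidence interval −0.33 to 0.63, adjusted p = 0.733). The value was −0.01 without sgCtrl replicate 1 and −0.04 after removal of GC content and length.

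The A-type carriers ISCA1 and ISCA2 work as a pair in making the larger clusters. *ISCA1* (chr9:86264546-86283102, minus strand) had normalized levels of 26.9, 18.5 and 30.7 cpm in sgCtrl and 34.8, 24.6 and 24.9 cpm in sgN6AMT1. Its log2 fold change was 0.10 (SE 0.29, 95% confidence interval −0.51 to 0.70, adjusted p = 0.874), and the sign turned to −0.10 without sgCtrl replicate 2 and to −0.03 without sgN6AMT1 replicate 1. The conditions overlapped. *ISCA2* (chr14:74493756-74497106, plus strand) was the least covered of the 8 genes, with 6, 7 and 10 counts in sgCtrl and 7, 112 and 46 counts in sgN6AMT1. Its normalized levels were 8.06, 8.08 and 11.8 cpm in sgCtrl and 7.38, 20.4 and 11.8 cpm in sgN6AMT1. The sgN6AMT1 libraries disagreed, replicate 1 being the lowest and replicate 2 the highest of all 6. The log2 fold change was 0.64 (SE 0.42, 95% confidence interval −0.25 to 1.52, adjusted p = 0.359), and it was −0.32 when sgN6AMT1 was represented by its shallow replicate 1 alone.

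*NFU1*, a late-acting carrier that supplies lipoyl synthase, lies at chr2:69396113-69437628 on the minus strand. Its normalized levels were 87.3, 90.0 and 61.3 cpm in sgCtrl and 82.2, 63.0 and 60.9 cpm in sgN6AMT1. Each condition had high and low libraries, and the ranges overlapped. The means were 79.5 ± 15.9 and 68.7 ± 11.7 cpm, with a log2 fold change of −0.24 (SE 0.20, 95% confidence interval −0.67 to 0.19, adjusted p = 0.485). The sign turned to 0.06 with the shallow libraries alone. *ISCU*, *GLRX5*, *ISCA1*, *ISCA2* and *NFU1* have annotated pseudogenes, and how reads that fit both a gene and its copies were counted is not given in the sources used here.

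As a group the 8 genes did not move in one direction. The log2 fold change was positive for 5 genes and negative for 3, with a median of 0.12 beside 0.01 over all genes tested, and the median was 0.30 without sgCtrl replicate 3. The summed level of the 8 genes was 305, 339 and 331 normalized cpm in sgCtrl and 361, 318 and 311 in sgN6AMT1. These sums overlapped, with means of 325 ± 17.9 and 330 ± 27.4 cpm (SD, n = 3 each). The members are not replicates of a condition, and no test was made over the list.

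**Figure D2:**
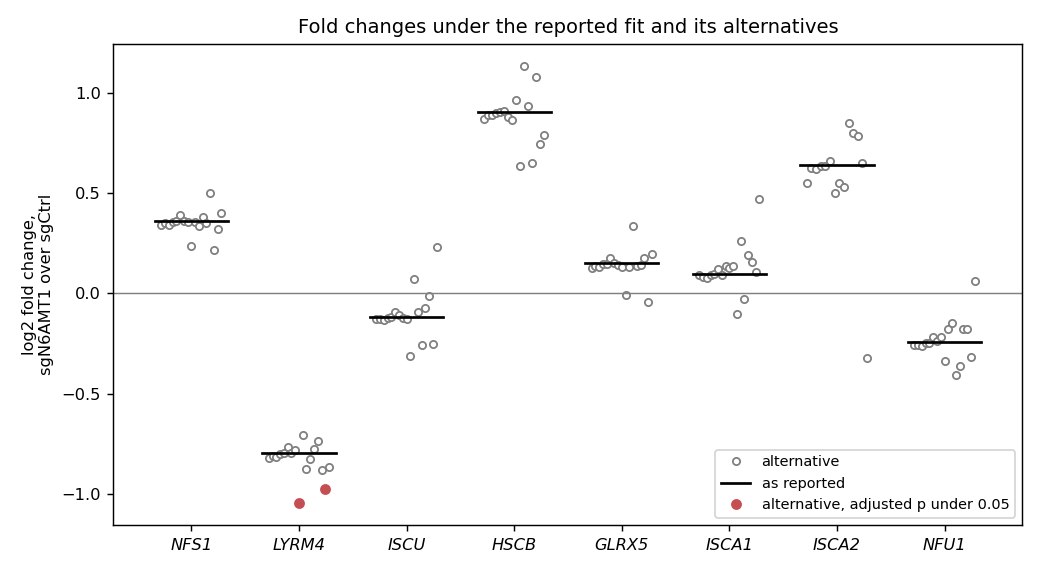
Log2 fold change of each of the 8 genes (sgN6AMT1 over sgCtrl) as reported (black line) and under the alternative fits (circles; filled where the adjusted p was under 0.05). *LYRM4* stays negative and *NFS1* and *HSCB* stay positive under every alternative in which they were tested, and *LYRM4* alone has alternatives under 0.05, 2 of 17.

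To compare levels between genes, normalized cpm were divided by the length of the canonical transcript in kb. In sgCtrl the highest levels per kb were those of *NFU1* (88.6 ± 17.7) and *ISCU* (81.6 ± 22.6), which overlapped. *GLRX5* followed at 36.9 ± 8.97 and *LYRM4* at 22.1 ± 2.66 normalized cpm per kb, both apart from their neighbors in this order. *NFS1* (15.3 ± 0.367), *ISCA1* (12.9 ± 3.17) and *HSCB* (9.99 ± 3.37) came next, and each overlapped the one before it apart from *NFS1*. *ISCA2* was lowest at 3.61 ± 0.832 normalized cpm per kb, without overlap. In the control cells the scaffold and a late carrier thus stood above the desulfurase and its partner.

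In sgN6AMT1 the order differed mainly in the place of *LYRM4*. *ISCU* (77.6 ± 16.0) and *NFU1* (76.5 ± 13.1) were again highest and overlapped, and *GLRX5* was at 41.2 ± 1.17 normalized cpm per kb. *NFS1* (19.7 ± 3.15), *HSCB* (18.3 ± 4.35), *ISCA1* (14.3 ± 2.93) and *LYRM4* (12.6 ± 1.13) followed, each overlapping its neighbor in the order. *LYRM4* thus went from the fourth place to the seventh, while *ISCA2* remained lowest at 5.12 ± 2.57 normalized cpm per kb. The scale assumes that the canonical transcript is the one expressed, which was not tested.

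The other genes of cluster assembly were looked up as a list. Of 13 further mitochondrial assembly genes 9 were tested, of which 1 fell and 0 rose, beside 4.76% lower and 5.09% higher of all genes tested, and *IBA57*, *BOLA1*, *NUBPL* and *SLC25A28* had too few counts. *HSPA9*, which encodes the chaperone that works with HSCB, was at 933, 896 and 936 normalized cpm in sgCtrl and at 653, 644 and 703 in sgN6AMT1. The levels were well apart, and the gene fell by 0.47 on the log2 scale (SE 0.14, adjusted p = 0.0432). The other 8 genes tested lay at log2 fold changes up to 0.44, the value of *FDXR*, which encodes the reductase that feeds electrons to the assembly machinery (adjusted p = 0.311). The median over the 9 was 0.10.

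The *HSPA9* call stood close to the threshold. Its adjusted p exceeded 0.05 when any single library other than sgN6AMT1 replicate 3 was left out, with a highest value of 0.161. It was 0.0655 with thinned deep libraries, 0.0542 with at least 10 counts in every library and 0.359 with the shallow libraries alone. The direction was the same in all 17 alternatives.

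The cytosolic assembly machinery receives a sulfur compound from mitochondria and serves cytosolic and nuclear proteins. All 12 of its listed genes were tested, 1 rose and 0 fell, beside 5.09% higher and 4.76% lower of all genes tested. *NUBP2*, one of the scaffold proteins on which cytosolic clusters form, was at 29.6, 30.0 and 22.4 normalized cpm in sgCtrl and at 43.2, 45.8 and 75.3 in sgN6AMT1. Every sgN6AMT1 library was above every sgCtrl library, and the gene rose by 1.04 on the log2 scale (SE 0.27, adjusted p = 0.0239). Its adjusted p exceeded 0.05 when any sgCtrl replicate (0.0672, 0.0866 and 0.0825 for replicates 1 to 3) or sgN6AMT1 replicate 3 (0.115) was left out. The log2 fold change was positive for 9 of the 12 genes, beside 4228 of the 8324 genes tested. The median was 0.30 beside 0.01 over all genes tested, and no test was made over the list. The lowest value was that of *NDOR1*, which encodes an electron donor of the machinery (−0.06, adjusted p = 0.929). *CIAO1* (0.53, adjusted p = 0.140) and *CIAO2B* (0.59, adjusted p = 0.0612), which encode parts of the complex that hands clusters to target proteins, had an unadjusted p under 0.05 without being called, and are named here after their values were seen. *BOLA2* and *BOLA2B*, 2 of the 3 genes below 0, are near-identical copies whose counts are uncertain.

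**Figure D3:**
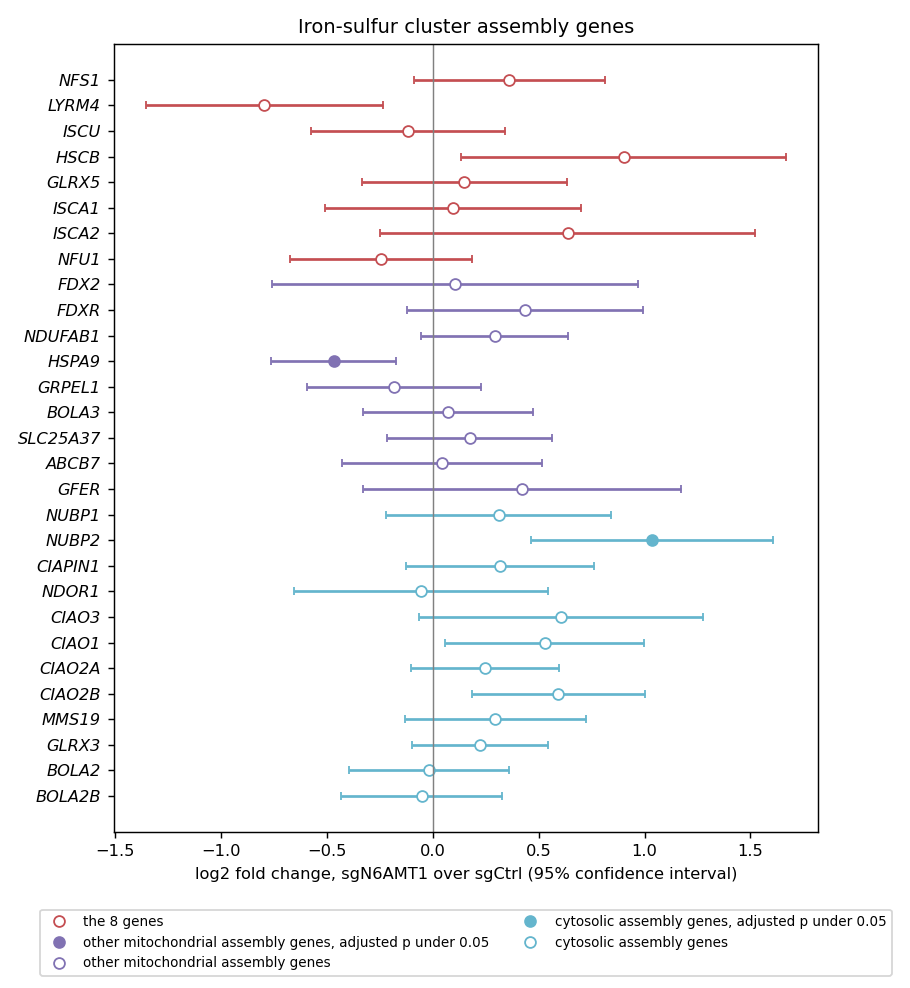
Log2 fold change with 95% confidence interval of the 8 genes (red), the other mitochondrial assembly genes (purple) and the cytosolic assembly genes (light blue) that passed the filter on low counts; filled points have an adjusted p under 0.05. *HSPA9* lies below 0 and *NUBP2* above it as filled points, and the intervals of *LYRM4*, *HSCB*, *CIAO1* and *CIAO2B* exclude 0 although none of them was called.

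Genes whose proteins carry an iron-sulfur cluster were looked at as possible recipients of the pathway. Of 16 such mitochondrial genes 15 were tested and 0 were called by edgeR, beside 9.85% of all genes tested. At an unadjusted p under 0.05 stood 2 of the 15, beside 26.2% of all genes tested. Over the 15 genes the log2 fold changes ran from −0.43 for *FECH* (adjusted p = 0.156) to 0.36 for *NDUFV1* (adjusted p = 0.169). *FECH* encodes ferrochelatase, the last enzyme of heme synthesis, and *NDUFV1* a complex I subunit. Of the 15 genes 10 were positive, beside 4228 of the 8324 genes tested, and the median was 0.18. DESeq2 called 0 of these mitochondrial genes, beside 630 of the 13874 genes it tested. Of 25 cytosolic and nuclear client genes 22 were tested, 1 rose and 0 fell, beside 5.09% higher and 4.76% lower of all genes tested. *CDKAL1*, which encodes a tRNA-modifying enzyme, was at 72.6, 77.3 and 83.7 normalized cpm in sgCtrl and at 131, 119 and 104 in sgN6AMT1, without overlap. It rose by 0.58 on the log2 scale (SE 0.18, adjusted p = 0.0422), and its adjusted p was 0.084 with DESeq2 and exceeded 0.05 without any single library other than sgN6AMT1 replicate 3. The lowest value in this list was that of the DNA polymerase gene *REV3L* (−0.56, adjusted p = 0.0543), which was called in 4 of 17 alternatives. The median of the list was 0.09.

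Fold changes in these libraries moved with the GC content of the transcripts. The median log2 fold change was −0.14 in the lowest of 5 equal bins of GC content and 0.19 in the highest. The 8 genes lay between these extremes, with 3 (*ISCA1*, *ISCA2* and *NFU1*) in the next-lowest bin, 3 (*NFS1*, *ISCU* and *HSCB*) in the middle bin and 2 (*LYRM4* and *GLRX5*) in the next-highest. *LYRM4*, at 52.1% GC, lay in a bin whose median log2 fold change was 0.11. The part of GC content in the value of *LYRM4* itself was not tested. After removal of GC content and length, the median was 0.03 for the 8 genes, beside −0.019 over the 8160 genes of that fit. The medians were 0.14 for the other mitochondrial assembly genes and 0.20 for the cytosolic assembly genes. They were 0.03 for the mitochondrial client genes and 0.01 for the other client genes. *NUBP2*, with 66.5% GC, then had a log2 fold change of 0.75 (adjusted p = 0.0498), and *HSPA9* one of −0.39 (adjusted p = 0.0442).

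The position of the 8 genes played no part in their choice. *NFS1*, *LYRM4*, *HSCB* and *ISCA2* start within 1000 bases of the start of another protein-coding gene that runs the opposite way. These are 4 of 8 genes (50%), beside 1281 of the 8148 tested protein-coding genes with a start site (15.7%). The arrangement was also found for 7 of the 12 cytosolic assembly genes tested (58.3%), among them the near-identical copies *BOLA2* and *BOLA2B*. It was found for 0 of the 9 other mitochondrial assembly genes tested. Among genes whose proteins carry a cluster it was found for 4 of 15 mitochondrial (26.7%) and 6 of 22 other genes tested (27.3%). It is thus not particular to the 8 genes, and no test was made on these lists. The neighbor of *ISCA2* was not analysed here. The neighbors of the other 3 genes were looked up after the values of the 8 genes had been seen.

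*LYRM4* is paired with *FARS2*, the gene of the mitochondrial phenylalanyl-tRNA synthetase, with 563 bases between the starts of the canonical transcripts and 93 bases between the gene models. The stretch between the gene models is shown because the transcripts read away from it on either side had opposite signs. It covers chr6:5260951-5261043 (RefSeq promoter sequence, GRCh38.p14) and is written 5′ to 3′ on the minus strand, the strand of *LYRM4*. Capitals mark each match of the GC box motif GGGCGG or its reverse complement CCGCCC, 5 matches in all, of which some touch or overlap each other.

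LYRM4 upstream stretch: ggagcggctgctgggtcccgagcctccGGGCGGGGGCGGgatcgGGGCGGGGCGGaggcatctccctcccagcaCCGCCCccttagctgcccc

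*FARS2* was at 25.5, 32.3 and 24.8 normalized cpm in sgCtrl and at 33.7, 35.0 and 43.7 in sgN6AMT1. Each sgN6AMT1 library was above each sgCtrl library, the reverse of *LYRM4* in the same libraries. The means were 27.5 ± 4.15 and 37.5 ± 5.42 cpm, with a log2 fold change of 0.46 (SE 0.25, 95% confidence interval −0.07 to 0.99, adjusted p = 0.263), and *FARS2* was not called. Within each library there were 0.679, 1.08 and 0.778 counts of *FARS2* per count of *LYRM4* in sgCtrl and 1.88, 1.96 and 2.10 in sgN6AMT1. The mean ratio was 0.844 ± 0.207 in sgCtrl and 1.98 ± 0.110 in sgN6AMT1, again without overlap. The levels of *FARS2* and *LYRM4*, each without overlap, already fixed this separation. This ratio too was chosen after its values were seen and was not tested.

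The other head-to-head pairs differed from this pattern. *ROMO1*, which encodes a mitochondrial inner membrane protein and starts 53 bases from *NFS1*, was at 48.8 ± 13.4 normalized cpm in sgCtrl and 68.8 ± 14.9 in sgN6AMT1. Its log2 fold change of 0.53 (SE 0.23, adjusted p = 0.152) had the sign of *NFS1*, and its libraries overlapped between the conditions. *CHEK2*, the checkpoint kinase gene that starts 219 bases from *HSCB*, was at 60.7 ± 14.6 and 56.7 ± 5.70 normalized cpm, with a log2 fold change of −0.09 (SE 0.21, adjusted p = 0.843). None of these neighbors was called.

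**Figure D4:**
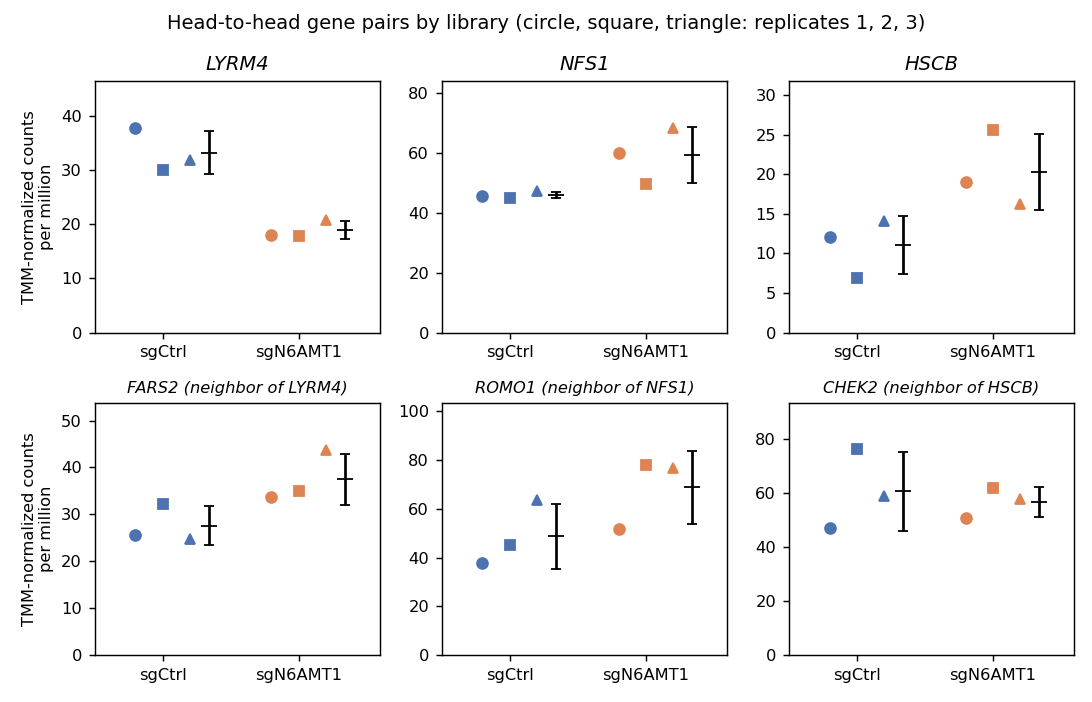
Levels in TMM-normalized cpm, by library, of *LYRM4*, *NFS1* and *HSCB* (top) and of the gene that starts head to head with each (bottom), on axes from 0; the bars give the mean ± SD of 3 libraries. *LYRM4* is lower and *FARS2* higher in every sgN6AMT1 library (orange) than in any sgCtrl library (blue), while *ROMO1* and *CHEK2* overlap between the conditions.

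In the 250 bases before the RefSeq start, which was found for all 8 genes, the GC box (GGGCGG, either strand) occurred in 8 of 8 genes and in 42.6% of 35116 promoters of the same length. These 35116 promoters were not limited to the genes tested here, so their shares are not a like background for the 8 genes. *LYRM4* had 7 GC box matches in its window, the most of the 8 genes. The CCAAT box (CCAAT or ATTGG) occurred upstream of 4 of 8 genes (*HSCB*, *GLRX5*, *ISCA1* and *ISCA2*), beside 32% of all promoters. An ETS motif (CCGGAAG or CTTCCGG) occurred upstream of *NFS1* alone, beside 8.52% of all promoters. The NRF1 motif GCATGCGC (or GCGCATGC), of a factor known for its control of nuclear genes for respiration, was in 0 of the 8 windows and in 2.63% of all promoters. These matches describe letters in the sequence, and the RNA-Seq data hold no measure of binding.

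The genes whose levels followed *LYRM4* most closely over the 6 libraries were *WDR70* (Pearson's r of log2 normalized cpm 0.9955), *CUL4A* (0.989) and *SMAP2* (0.9876), out of 4169 genes with a mean of at least 50 normalized cpm. The 6 libraries fall into 2 conditions, and 32 genes had an r above 0.95, so these values are a description of likeness and no test was made. None of the 3 was called, with log2 fold changes of −0.32, −0.39 and −0.24 (adjusted p = 0.258, 0.112 and 0.317).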

How the data were processed

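RNA-Seq libraries of 3 sgCtrl and 3 sgN6AMT1 K562 transductions were analyzed, with groups and replicate numbers taken from the labels. The authors deposited raw counts per gene, by symbol, for which cutadapt was used to trim the reads, HISAT2 to map them on GRCh38, and a gene annotation of the same build to assign them. The counting tool, its use of strand and the tools' versions are not given in the sources used here. The paper's methods describe total RNA with rRNA depletion, while the labels list polyA RNA. For the control sgRNAs, the paper's targets are EGFP, or OR11A1 together with OR2M4.

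From these counts, edgeR 4.0.16 under R 4.3.3 was used to filter genes (filterByExpr), to scale the libraries (TMM) and to test sgN6AMT1 against sgCtrl with its quasi-likelihood functions (glmQLFit, glmQLFTest), with no covariate. Adjusted p-values are Benjamini-Hochberg values over the 8324 genes tested, and the common biological coefficient of variation was 0.16. The fit was first tested on simulated data. A count of 0 allows 3 counts, 0.543 to 4.04 cpm by library. No replicate pair agreed within sampling noise (chi-square per degree of freedom 2.04 to 11.9). Positions, lengths and GC content came from GENCODE v44, which matched 18851 symbols, 867 of them through an older symbol.

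The 8 genes and the gene lists were chosen with earlier results of these data known, and 1 gene of the list of other assembly genes is not reported here. Of the other genes, those called and the highest and lowest of each list were named, with the 3 genes most like the member of smallest p; neighbors and ratios were added after seeing values. The alternatives were DESeq2 1.42.0, RLE factors, total counts, normalization without mt-DNA-encoded genes, no filter, at least 10 counts in every library, the newer quasi-likelihood method, a replicate block, thinning of the deep libraries, each library left out, an adjusted p under 0.01 and, chosen after seeing the data, removal of GC content and length and the use of the shallow libraries alone.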

Additional observations from a re-analysis of the deposited data

How the results depend on the processing

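The count of 0 called among the 8 genes became 1 (*LYRM4*, of 7 tested) with thinned deep libraries, beside 647 of 8255 genes tested. It also became 1 (*LYRM4*) with GC content and length removed, beside 929 of 8160 genes tested. The count was 0 elsewhere, an adjusted p under 0.01 and the removal of each library included (0 to 0). Of 132 pairs of a gene and an alternative fit, 122 kept sign and side of the threshold, 8 changed sign and 2 passed the threshold only in the alternative. The sign changes were *ISCU* to 0.229, *ISCA2* to −0.322 and *NFU1* to 0.062 with the shallow libraries alone and *GLRX5* to −0.044 with GC content and length removed. With each library left out, *ISCU* ran from −0.311 to 0.073, *GLRX5* from −0.01 to 0.335, *ISCA1* from −0.103 to 0.261 and *NDOR1* from −0.232 to 0.13. The median over the 8 genes was 0.03 with GC content and length removed, beside −0.019 over all genes of that fit. It was 0.014 over the genes left at 10 counts, and 0.053 to 0.298 with each library left out, the highest without sgCtrl replicate 3.

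Of the 21 other assembly genes tested 2 were called as reported. With at least 10 counts in every library the count was 1 of 19, beside 701 of 7129 genes tested. With each library left out it was 0 to 3 of 21 (0 without any sgCtrl replicate, 1 without sgN6AMT1 replicate 2 or 3, 3 without sgN6AMT1 replicate 1). Calls over all genes also changed with the library left out, as given below. Of the 37 client genes tested 1 was called as reported. The count was 0 of 41 with DESeq2 and 0 of 37 with total counts, beside 630 of 13874 and 790 of 8324 genes tested. It was 2 (*CDKAL1* and *REV3L*) with RLE factors, no filter or the replicate block. With each library left out it was 0 to 1 of 37 (0 without any sgCtrl replicate or sgN6AMT1 replicate 2). The gene called was *REV3L* without sgN6AMT1 replicate 1 and *CDKAL1* without sgN6AMT1 replicate 3. With thinned deep libraries 2 of 21 other assembly genes were called, *NUBP2* and *CIAO2B*, without *HSPA9*, beside 647 of 8255 genes tested. The cause of these changes was not tested. In the fits with the shallow libraries alone, the lone sgN6AMT1 library is assumed to vary like the sgCtrl libraries. *ISCA2* was not tested with thinned libraries, at 10 counts or without sgN6AMT1 replicate 2, nor *HSCB* at 10 counts, for want of counts.

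Over all genes, 820 of 8324 tested were called as reported, 630 of 13874 with DESeq2 and 1201 of 13874 without the filter. Without sgCtrl replicates 1 to 3 the calls were 301 of 8594, 220 of 8651 and 752 of 8626. Without sgN6AMT1 replicates 1 to 3 they were 951 of 8477, 495 of 8456 and 538 of 8449. The same replicate number shared little between conditions (correlations of the deviations −0.001, 0.083 and 0.19), and the numbers were not taken as pairs. The replicate block called 1195 of 8324 genes tested, 0 of the 8, 3 of 21 other assembly genes and 2 of 37 client genes. It left the median of the 8 at 0.139. Not every library correlated best with its own number. The control levels of *HSCB* and *ISCA2* rest on 6 to 12 and 6 to 10 counts a library.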
